A study of Mus musculus with 12 samples.

Results

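The EGF receptor and ligand genes described here are 10 genes: the receptors *Egfr*, *Erbb2* and *Erbb3*, the EGFR ligands *Hbegf*, *Areg*, *Ereg*, *Tgfa* and *Btc*, the neuregulin ligand *Nrg1*, and *Errfi1*, which encodes an inhibitor of the receptors. They were picked by gene symbol, through the mouse Ensembl identifiers of the count table, and are 10 of its 55487 genes. All 10 had counts, and 8 passed the filter on low counts and were tested, while *Areg* and *Btc* did not. The cells were im-TEC, a conditionally immortalized mouse kidney tubular epithelial cell line that carries SV40 large T antigen. RNA was measured after 48 h in 4 groups of 3 libraries. The combined group received TGFβ at 10 ng/mL with the nicotinamide N-methyltransferase (NNMT) inhibitor 5-amino-1-methylquinolinium (NNMTi) at 50 µM, the TGFβ group and the NNMTi group received 1 of these agents at the same dose, and the control group received neither. All groups shared the same culture history. The cells were maintained at 33 °C with interferon-gamma at 10 ng/mL in a medium that contains EGF at 20 ng/mL and hydrocortisone, and spent 7 days at 37 °C without interferon-gamma before they were seeded, which lowers T antigen activity. Whether EGF was present during the treatment is not given in the sources used here. Nothing states that the 3 replicates of a group were grown as separate cultures. The p-values therefore reflect only the spread between these libraries, which may be technical.

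EGFR is a receptor tyrosine kinase that is activated when a ligand brings a pair of receptors together. ERBB2 binds no known ligand and works as a partner of the other receptors, ERBB3 binds neuregulins and has little kinase activity of its own, and ERBB4 binds neuregulins and several EGFR ligands. The ligands are made as membrane-anchored precursors that metalloproteases such as ADAM17 and ADAM10 cut free, so a transcript level does not give the amount of active ligand. Signals pass mainly through the RAS-ERK and PI3K-AKT cascades, and ERRFI1 (also called MIG6) is induced by receptor activity and binds the kinase domain of EGFR to shut it off. In the kidney, EGFR takes part in tubular repair, and its long-lasting activation in proximal tubule has been tied to TGFβ-driven fibrosis in mice.

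The 250 bases before the RefSeq transcription start (GRCm38.p6) are shown for *Tgfa* and *Errfi1*, because these are the members that fell in every comparison of a TGFβ-treated with a TGFβ-free group. Capitals mark a match, on either strand, to the SMAD box CAGAC in *Tgfa* and to the cAMP response element TGACGTCA in *Errfi1*.
Tgfa, chr6:86194972-86195221, plus strand: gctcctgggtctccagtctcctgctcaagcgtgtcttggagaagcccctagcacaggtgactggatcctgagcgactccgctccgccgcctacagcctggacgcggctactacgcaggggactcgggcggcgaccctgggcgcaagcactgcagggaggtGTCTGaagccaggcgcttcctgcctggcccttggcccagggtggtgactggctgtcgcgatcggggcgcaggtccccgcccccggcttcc
Errfi1, chr4:150854820-150855069, plus strand: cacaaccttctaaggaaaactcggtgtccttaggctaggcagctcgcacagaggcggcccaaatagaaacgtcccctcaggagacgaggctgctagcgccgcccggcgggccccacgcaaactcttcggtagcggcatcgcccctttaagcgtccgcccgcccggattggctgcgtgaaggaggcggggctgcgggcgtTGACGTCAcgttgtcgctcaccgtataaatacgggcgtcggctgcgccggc
The *Tgfa* match is the SMAD box read on the minus strand, with its last base 86 bases before the start, and 42.2% of 32851 promoters of the same length hold that motif. The *Errfi1* match ends 44 bases before the start, and 1.55% of promoters hold it. Its other listed start, whose window is chr4:150853546-150853795, held none of the motifs searched. The AP-1 site TGANTCA, held by 6.75% of promoters, was found in no window of the 6 members with an entry (*Egfr*, *Erbb2*, *Areg*, *Tgfa*, *Btc* and *Errfi1*), and the *Areg* window held 1 TGACGTCA that ends 54 bases before the start. The matched motifs did not overlap. These matches are descriptions of sequence, and binding was not measured.

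Library totals ranged from 2584117 to 11866903 counts in genes, with TGFβ replicate 3 the shallowest. Levels are given as CPM, counts scaled to the size of each library with TMM factors, and 3 counts in a library correspond to 0.266 to 1.15 CPM. Because the QuantSeq 3′ protocol reads transcript ends, CPM is not expected to scale with gene length. Genes may still differ in how their reads were captured and counted. Orders, shares and ratios across genes therefore describe counts, not amounts of transcript. The spread between replicates, as the biological coefficient of variation, was 0.112 in the combined group, 0.227 in the TGFβ group, 0.0884 in the NNMTi group and 0.0657 in the control group. Of 12 tubular epithelial markers *Epcam* and *Slc34a1* were at 0 in every library, and the summed level of the list was 2224 to 2418 CPM in the combined group, 2349 to 2718 CPM with TGFβ, 2120 to 2227 CPM with NNMTi and 1833 to 1904 CPM in controls. The members of this list moved in both directions: of 9 tested, *Cdh6*, *Krt8* and *Krt18* rose with TGFβ, and *Cdh16*, *Pax2* and *Lrp2* fell. The sum was carried by *Cdh6*, at 1640 ± 111 CPM in the combined group, 1728 ± 173 CPM with TGFβ, 1246 ± 70.9 CPM with NNMTi and 926 ± 10.6 CPM in controls. The 7 fibroblast markers summed to 37.4 to 47.3 CPM in the combined group, 156 to 195 CPM with TGFβ, 3.30 to 5.21 CPM with NNMTi and 3.93 to 7.92 CPM in controls, with *Pdgfra*, *Lum* and *Thy1* at 0 throughout, and most of the sum with TGFβ was *Col1a1*, at 38.4 ± 6.13 CPM in the combined group, 165 ± 19.3 CPM with TGFβ, 3.60 ± 1.51 CPM with NNMTi and 4.54 ± 1.62 CPM in controls. The 7 immune markers summed to 16.7 to 18.5 CPM in the combined group, 13.8 to 41.0 CPM with TGFβ, 78.1 to 100.3 CPM with NNMTi and 97.5 to 106 CPM in controls, with the macrophage marker *Adgre1* at 0. Most of that sum in NNMTi and control libraries was 1 gene, *Cd74*, at 11.9 ± 0.931 CPM in the combined group, 21.1 ± 14.0 CPM with TGFβ, 80.2 ± 14.4 CPM with NNMTi and 93.9 ± 5.08 CPM in controls, while the leukocyte marker *Ptprc* had at most 0.899 CPM in any library. *Cd68*, of the same list, was present in all groups, averaging 5.37 CPM in the combined group, 6.38 CPM with TGFβ, 5.32 CPM with NNMTi and 7.20 CPM in controls. The 5 endothelial markers summed to at most 0.437 CPM. The part of these shifts in the results below was not tested. In bulk RNA, fewer cells that express a gene and less RNA per cell cannot be told apart.

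TGFβ lowered *Tgfa* and *Errfi1* with and without the inhibitor, and the inhibitor lowered *Nrg1* with and without TGFβ. *Hbegf* was called up in each comparison of a TGFβ-treated with a TGFβ-free group, at most 1.49-fold. Its call for TGFβ against control was lost under 16 of 20 other settings. *Egfr* was called up with TGFβ in inhibitor-treated cells (log2 change 0.51) but not in cells without the inhibitor (0.31). The difference between these *Egfr* changes was not called, and neither was *Egfr* in the combined group against control (0.11). Calls are from edgeR's quasi-likelihood test over 13581 genes, with p-values adjusted by Benjamini-Hochberg and a threshold of 0.05. For TGFβ against control, 1 of 8 tested members rose and 2 fell, where 19.4% of all tested genes rose and 17.1% fell. For the combined group against NNMTi, 2 members rose and 2 fell, where 18.0% of all genes rose and 18.3% fell. For NNMTi against control, 1 of 8 members was called, and it fell, where 2.47% of all genes rose and 5.80% fell. For the combined group against TGFβ, 1 of 8 was called, and it also fell, where 3.45% of all genes rose and 6.97% fell. For the combined group against control, 1 member rose and 4 fell, where 15.3% of all genes rose and 16.5% fell. The median log2 change of the 8 members was -0.81 for the combined group, -0.16 for TGFβ and -0.15 for NNMTi against control, beside 0.03, 0.02 and 0.01 over all genes, and these comparisons share the 3 control libraries. It was -0.30 for the combined group against NNMTi and -0.12 against TGFβ, beside -0.0025 and -0.02 over all genes.

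**Figure D1:**
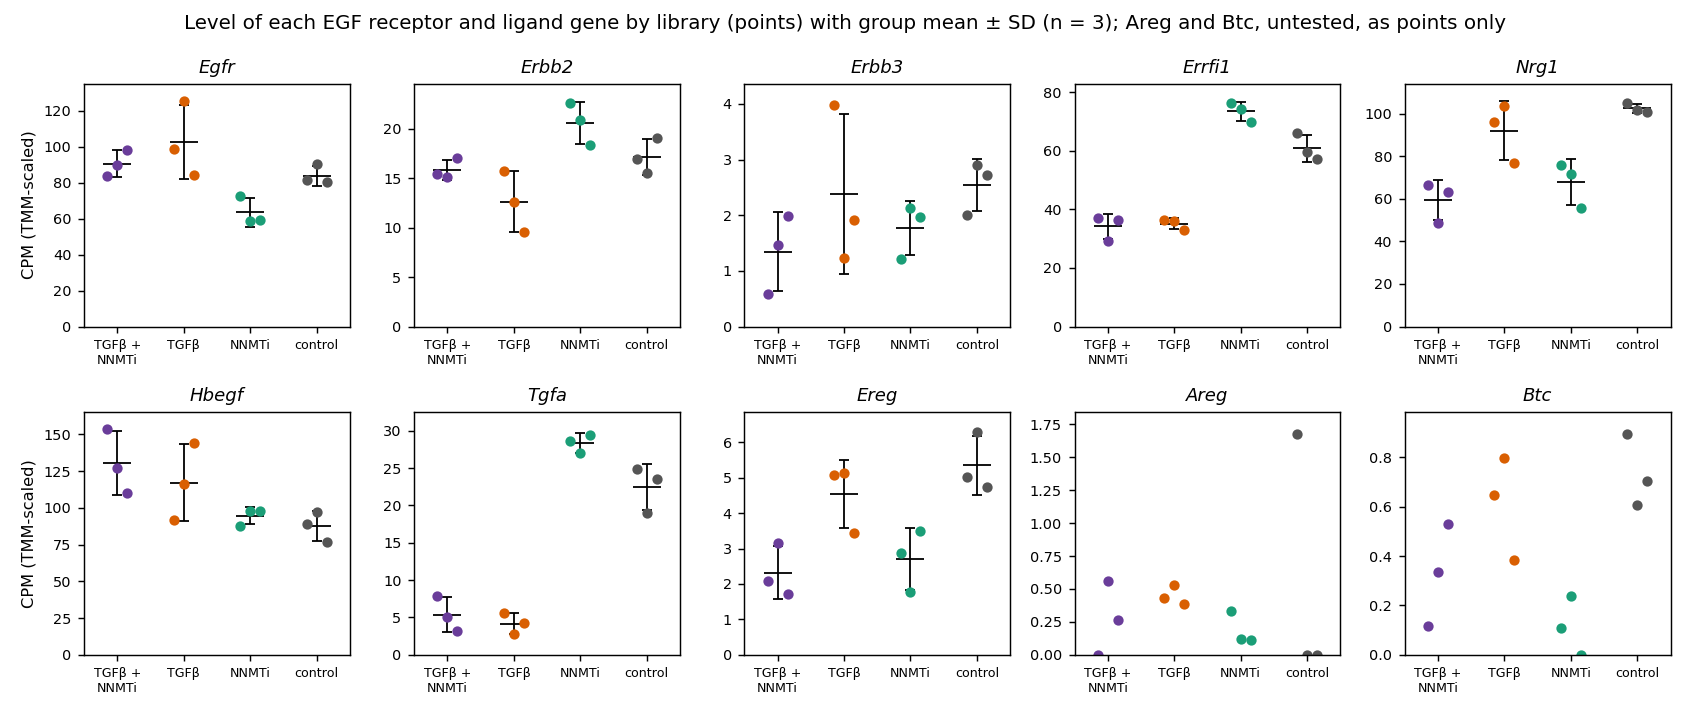
Level of each of the 10 genes in CPM, with 1 point per library and, for the 8 tested genes, the group mean ± SD (n = 3 per group, groups from left to right TGFβ + NNMTi, TGFβ, NNMTi and control). The points of *Tgfa* and *Errfi1* fall into a low set with TGFβ and a high set without it, while those of *Nrg1* and *Ereg* are lower with the inhibitor than in the matching group without it.

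The order of levels shifted with treatment. In the combined group *Hbegf* came first at 130.3 ± 21.8 CPM (SD, n = 3 here and below), ahead of *Egfr* at 90.6 ± 7.49, *Nrg1* at 59.5 ± 9.34 and *Errfi1* at 34.2 ± 4.32 CPM, and these 4 ranges did not overlap. In controls *Nrg1* was highest at 103 ± 2.07 CPM, followed by *Hbegf* at 87.6 ± 10.1 and *Egfr* at 83.9 ± 5.58 CPM, whose ranges overlapped, and by *Errfi1* at 60.9 ± 4.59 CPM. *Tgfa* at 22.5 ± 3.07 and *Erbb2* at 17.2 ± 1.79 CPM came next and met at 19.0 CPM, and *Ereg* at 5.35 ± 0.829, *Erbb3* at 2.55 ± 0.473 and the untested *Btc* and *Areg* lay below them.

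Among the receptors, *Egfr* (ENSMUSG00000020122) had 83.5, 89.9 and 98.4 CPM in the combined group, 98.4, 125 and 84.2 CPM with TGFβ, 72.6, 58.6 and 59.1 CPM with NNMTi and 81.2, 90.3 and 80.1 CPM in controls. The NNMTi libraries were below those of every other group, and the TGFβ and control libraries overlapped. *Egfr* was higher in the combined group than in the NNMTi group by 0.51 ± 0.13 on the log2 scale, a 1.43-fold difference (edgeR adjusted p = 0.00527). For NNMTi against control the log2 change was -0.40 ± 0.13, with a 95% interval of -0.68 to -0.12, and the adjusted p of 0.0727 missed the threshold. That *Egfr* change was called under 8 of 20 other settings, with a lowest adjusted p of 9.27e-04 when only the NNMTi and control libraries were fitted. Leaving out TGFβ replicate 2, which is in neither group but adds to the shared spread, gave an adjusted p of 0.00401. For TGFβ against control the log2 change was 0.31 ± 0.13 (adjusted p = 0.0815), and it was 0.42 with an adjusted p of 0.0135 without TGFβ replicate 3. The combined group was not called against control (0.11 ± 0.13, adjusted p = 0.564) or against TGFβ (-0.19 ± 0.13, adjusted p = 0.386). The noncoding gene *Egfros* overlaps *Egfr* on the other strand. Since the strand used in counting is not stated, how reads over both genes were counted is not known.

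*Erbb2* (ENSMUSG00000062312), which encodes the ligand-less partner receptor, had 15.4, 15.2 and 17.0 CPM in the combined group, 15.7, 12.6 and 9.57 CPM with TGFβ, 22.6, 20.9 and 18.3 CPM with NNMTi and 17.0, 15.5 and 19.0 CPM in controls. The combined and NNMTi groups did not overlap, and the other compared pairs did. No comparison of *Erbb2* was called, the largest changes being -0.39 ± 0.18 for TGFβ against control (adjusted p = 0.0902) and -0.38 ± 0.17 for the combined group against NNMTi (adjusted p = 0.0862) on the log2 scale. The first of these was called under 3 of 20 other settings, with library size alone, after thinning and without TGFβ replicate 1 (adjusted p = 0.0282), and the second under 2 of 20. The protein-coding gene *Mien1* overlaps *Erbb2* on the opposite strand, so its values are uncertain. *Erbb3* (ENSMUSG00000018166), the neuregulin receptor, had 0.579, 1.46 and 1.98 CPM in the combined group, 3.99, 1.24 and 1.91 CPM with TGFβ, 1.21, 2.13 and 1.97 CPM with NNMTi and 2.01, 2.91 and 2.72 CPM in controls. All 3 combined libraries were below the controls, and TGFβ replicate 1 was the highest of the 12. None of its comparisons was called, and the log2 change in the combined group against control was -0.93 ± 0.50 with a 95% interval of -1.98 to 0.12 (adjusted p = 0.17).

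*Tgfa* (ENSMUSG00000029999), which encodes the EGFR ligand transforming growth factor alpha, had 7.87, 5.06 and 3.17 CPM in the combined group, 5.60, 2.75 and 4.21 CPM with TGFβ, 28.6, 27.0 and 29.5 CPM with NNMTi and 24.9, 19.0 and 23.5 CPM in controls. Each of the 6 libraries with TGFβ was far below each of the 6 without it. The combined and TGFβ libraries overlapped, and the NNMTi libraries were all above the controls. *Tgfa* was lower with TGFβ than in controls by a log2 change of -2.44 ± 0.28, 5.44-fold (edgeR adjusted p = 1.56e-06). In the combined group it was lower than with NNMTi by -2.39 ± 0.25 (adjusted p = 6.27e-07) and lower than in controls by -2.05 ± 0.26 (adjusted p = 5.02e-06). Adding the inhibitor gave log2 changes of 0.39 ± 0.31 with TGFβ (adjusted p = 0.458) and 0.34 ± 0.22 without it (adjusted p = 0.423), neither of them called.

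*Hbegf* (ENSMUSG00000024486), which encodes heparin-binding EGF-like growth factor, a ligand of EGFR and ERBB4, had 154, 127 and 110.4 CPM in the combined group, 91.7, 116 and 144 CPM with TGFβ, 87.9, 98.0 and 97.7 CPM with NNMTi and 89.1, 96.8 and 76.8 CPM in controls. The combined libraries were above every NNMTi and control library, while the lowest TGFβ library fell within the control range. *Hbegf* was higher in the combined group than in controls by 0.58 ± 0.15 on the log2 scale, 1.49-fold (edgeR adjusted p = 0.00579), and higher than with NNMTi by 0.46 ± 0.15 (adjusted p = 0.0193). Without combined replicate 1 these adjusted p-values were 0.0517 and 0.116, and without NNMTi replicate 1 the second was 0.0770. For TGFβ against control the change was 0.41 ± 0.15 (adjusted p = 0.0412), a call that was lost under 16 of 20 other settings, among them leaving out TGFβ replicate 2 (adjusted p = 0.125) or 3 (adjusted p = 0.171). The inhibitor gave 0.17 ± 0.15 with TGFβ (adjusted p = 0.515) and 0.11 ± 0.15 without it (adjusted p = 0.74).

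*Ereg* (ENSMUSG00000029377), which encodes epiregulin, another ligand of EGFR and ERBB4, had 2.08, 3.15 and 1.72 CPM in the combined group, 5.06, 5.14 and 3.44 CPM with TGFβ, 2.86, 1.77 and 3.49 CPM with NNMTi and 5.02, 6.29 and 4.74 CPM in controls. The combined libraries were below all TGFβ libraries, and the NNMTi libraries below all controls. The fall in the combined group against control, -1.19 ± 0.32 on the log2 scale or 2.28-fold, was called (edgeR adjusted p = 0.00839). The inhibitor alone gave -0.97 ± 0.32 (adjusted p = 0.0691), and the inhibitor on top of TGFβ gave -1.02 ± 0.33 (adjusted p = 0.0592). Both missed the threshold, and they were called under 5 and 3 of 20 other settings, for the first also without TGFβ replicate 2 (adjusted p = 0.0369). They rest on few reads, 59 counts over the combined group, 114 over the TGFβ group, 73 over the NNMTi group and 144 over the controls.

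The remaining EGFR ligands were close to the limit of detection. *Areg* (ENSMUSG00000029378), which encodes amphiregulin, had 0, 5 and 2 counts in the combined libraries, 4, 6 and 1 with TGFβ, 3, 1 and 1 with NNMTi and 15, 0 and 0 in controls. All 15 control counts came from replicate 1. *Btc* (ENSMUSG00000082361), which encodes betacellulin, had 1, 3 and 4 counts in the combined libraries, 6, 9 and 1 with TGFβ, 1, 2 and 0 with NNMTi and 8, 5 and 7 in controls, so that the NNMTi counts were below all control counts. Without the filter on low counts neither gene was called in any comparison, and the smallest p was that of *Btc* for NNMTi against control (unadjusted p = 0.021, edgeR adjusted p = 0.206).

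*Nrg1* (ENSMUSG00000062991), which encodes neuregulin 1, a ligand of ERBB3 and ERBB4, had 66.3, 48.9 and 63.4 CPM in the combined group, 96.0, 104 and 76.9 CPM with TGFβ, 76.1, 71.9 and 55.8 CPM with NNMTi and 105, 102 and 101 CPM in controls. Both groups with the inhibitor were below their partners without it, with no overlap, and the TGFβ and control libraries overlapped. *Nrg1* fell with the inhibitor alone by 0.59 ± 0.14 on the log2 scale, 1.51-fold (edgeR adjusted p = 0.0111). On top of TGFβ it fell by 0.65 ± 0.14, 1.56-fold (adjusted p = 0.00649), and in the combined group against control by 0.79 ± 0.14 (adjusted p = 2.32e-04). TGFβ gave -0.14 ± 0.14 without the inhibitor (adjusted p = 0.466) and -0.19 ± 0.14 with it (adjusted p = 0.311). The call with the inhibitor alone was lost without NNMTi replicate 3 (adjusted p = 0.0595) or control replicate 1 (0.0513), and the call on top of TGFβ when only those 2 groups were fitted (0.0677).

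*Errfi1* (ENSMUSG00000028967), which encodes the feedback inhibitor of EGFR, had 37.0, 29.2 and 36.3 CPM in the combined group, 36.3, 36.0 and 32.9 CPM with TGFβ, 76.2, 74.2 and 70.0 CPM with NNMTi and 66.0, 59.6 and 57.0 CPM in controls. The TGFβ-treated libraries were all below the others, the combined and TGFβ groups overlapped, and the NNMTi libraries were above the controls. *Errfi1* was lower with TGFβ than in controls by a log2 change of -0.78 ± 0.12, 1.72-fold (edgeR adjusted p = 4.54e-05). In the combined group it was lower than with NNMTi by -1.10 ± 0.12, 2.15-fold (adjusted p = 5.42e-07), and lower than in controls by -0.83 ± 0.12 (adjusted p = 2.09e-05). The inhibitor gave -0.05 ± 0.12 on top of TGFβ (adjusted p = 0.845) and 0.27 ± 0.11 without it, with a 95% interval of 0.03 to 0.51 (adjusted p = 0.168). Noncoding genes overlap *Errfi1*, *Tgfa*, *Ereg* and *Nrg1* on the opposite strand, and the microRNA gene *Mir6917* overlaps *Erbb3* on the same strand. Reads over both genes of such a pair may have been counted for either gene or left out as ambiguous.

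**Figure D2:**
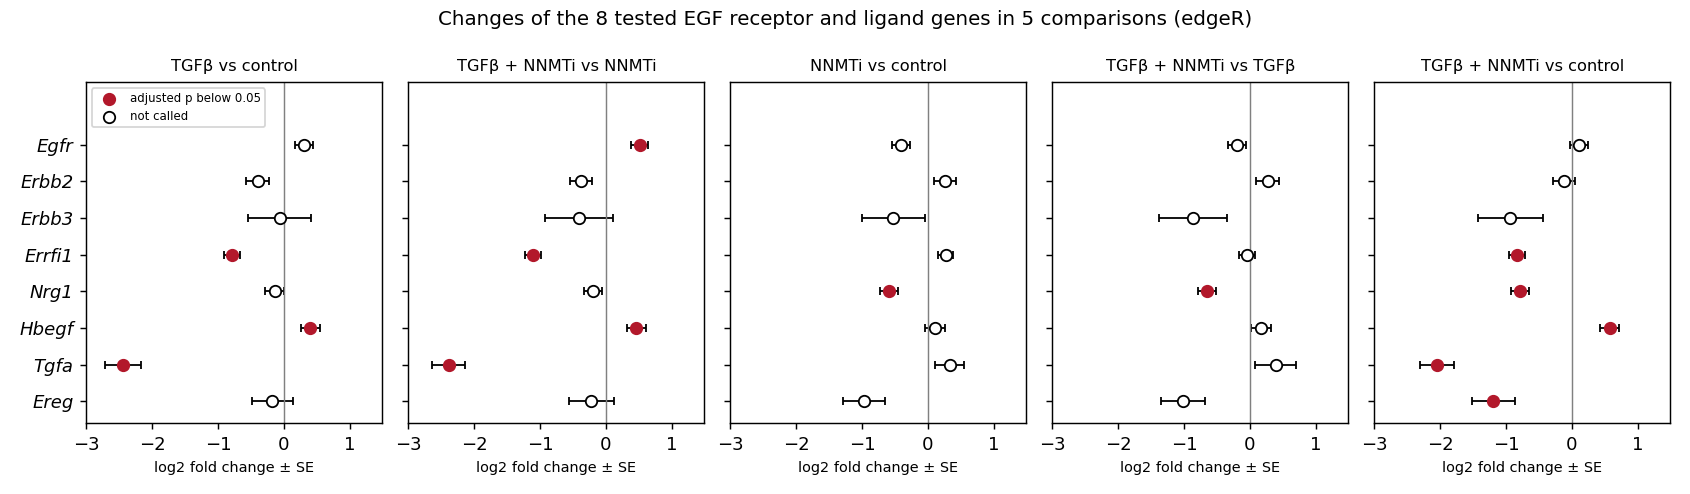
Log2 fold change ± SE of the 8 tested members in 5 comparisons, from edgeR, with filled points where the adjusted p was below 0.05 and open points elsewhere. *Tgfa* and *Errfi1* are filled on the left of 0 in the 3 panels that compare a TGFβ-treated with a TGFβ-free group, and *Nrg1* in the 3 panels that compare a group with the inhibitor to a group without it.

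Whether the inhibitor acted differently in the presence of TGFβ was tested as the interaction, the inhibitor effect with TGFβ minus that without it. In edgeR, 0 of 8 members were called, 0 of 8 had an unadjusted p under 0.05, and DESeq2 and limma voom with quality weights also called 0, where 0.641% of all genes had a positive and 0.471% a negative called interaction. The largest difference in relation to its error was that of *Errfi1*, -0.32 ± 0.17 on the log2 scale with a 95% interval of -0.67 to 0.03 (adjusted p = 0.525). For *Nrg1* the difference was -0.05 ± 0.20 with an interval of -0.46 to 0.36, and for *Tgfa* it was 0.06 ± 0.37 with an interval of -0.73 to 0.84. The *Egfr* difference was 0.21 ± 0.19 with an interval of -0.19 to 0.60 (adjusted p = 0.766). Intervals of this width do not show that the effects were equal.

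**Figure D3:**
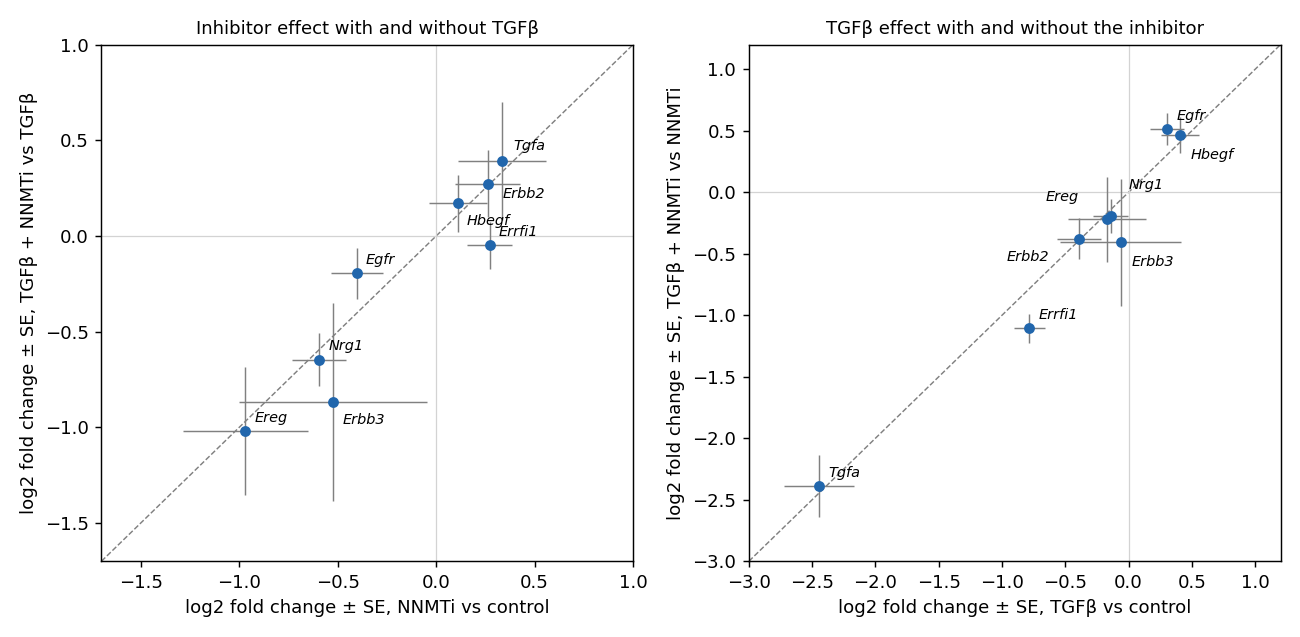
Log2 fold changes ± SE of the 8 tested members, with the inhibitor effect in the left panel (vertical axis with TGFβ, horizontal axis without it) and the TGFβ effect in the right panel (vertical axis with the inhibitor, horizontal axis without it). The dashed line marks equal effects, and the 2 axes of a panel share no libraries. *Nrg1* and *Ereg* lie low on both axes of the left panel, and *Tgfa* and *Errfi1* on both axes of the right panel.

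The make-up of the ligand and receptor transcripts was summed within each library, as a description without a test. Of the CPM of 7 EGFR ligands (*Hbegf*, *Tgfa*, *Ereg*, *Areg*, *Btc*, *Egf* and *Epgn*), *Hbegf* made up 90.1 ± 0.413% in the combined group, 88.2 ± 2.80% with TGFβ, 69.6 ± 1.39% with NNMTi and 69.5 ± 3.68% in controls (SD, n = 3). *Tgfa* made up 3.59 ± 1.00% in the combined group, 3.32 ± 1.67% with TGFβ, 20.9 ± 1.36% with NNMTi and 18.0 ± 3.12% in controls. The summed ligand CPM itself overlapped between the groups, at 145 ± 24.8 in the combined group, 132 ± 25.4 with TGFβ, 136 ± 5.73 with NNMTi and 126 ± 8.39 in controls. Of the CPM of the 4 receptors (*Egfr*, *Erbb2*, *Erbb3* and *Erbb4*), *Egfr* made up 83.4 ± 0.251% in the combined group, 85.4 ± 4.16% with TGFβ, 64.5 ± 2.48% with NNMTi and 67.1 ± 2.36% in controls. *Erbb2* had the next largest share in the combined group, at 14.6 ± 0.646%. A share also rises when another receptor in the sum falls. *Erbb4* averaged 0.834 CPM in the combined group, 2.38 CPM with TGFβ, 12.3 CPM with NNMTi and 21.3 CPM in controls. *Egfr* itself was not called against control in the combined group (edgeR adjusted p = 0.564) or with TGFβ (0.0815). The ratio of *Egfr* to *Errfi1*, receptor to inhibitor, was 2.68 ± 0.413 in the combined group, 2.91 ± 0.489 with TGFβ, 0.862 ± 0.0829 with NNMTi and 1.38 ± 0.143 in controls. The ratio was above 2 in each TGFβ-treated library and below 1 in each NNMTi library.

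**Figure D4:**
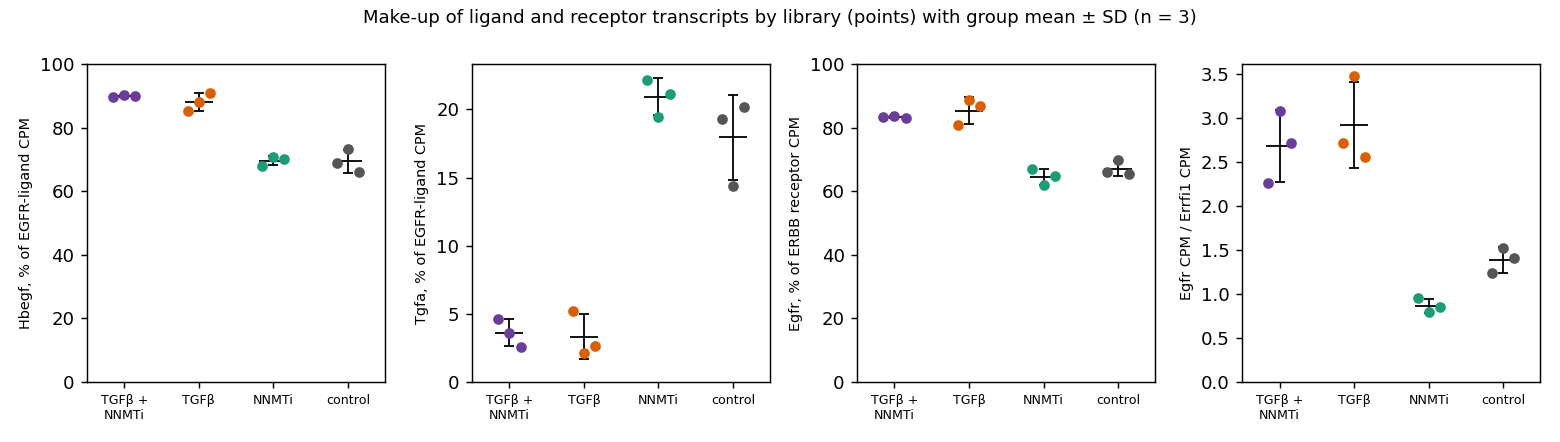
Share of *Hbegf* and of *Tgfa* in the summed CPM of 7 EGFR ligands, share of *Egfr* in the summed CPM of 4 receptors (all in percent), and the ratio of *Egfr* to *Errfi1* CPM, with 1 point per library and the group mean ± SD (n = 3). In all 4 panels the TGFβ + NNMTi and TGFβ libraries lie apart from the NNMTi and control libraries. The receptor sum includes *Erbb4*, whose level was lower in both groups with TGFβ.

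The rest of the family was represented by 3 tested genes of 6, *Erbb4*, *Egf* and *Nrg2*, named after their values were seen. *Erbb4* (ENSMUSG00000062209), the other neuregulin receptor, had 0.810, 0.899 and 0.792 CPM in the combined group, 3.77, 2.21 and 1.15 CPM with TGFβ, 12.1, 12.9 and 11.9 CPM with NNMTi and 22.7, 20.7 and 20.7 CPM in controls. No pair of groups overlapped, and the order ran from the combined group at the bottom to the controls at the top. The gap between the 2 lowest groups rests on few reads, 7, 8 and 6 counts in the combined libraries and 35, 25 and 3 with TGFβ. *Erbb4* fell with TGFβ by 3.00 ± 0.25 on the log2 scale, 7.99-fold (edgeR adjusted p = 2.52e-08), and with the inhibitor on top of TGFβ it fell by 1.65 ± 0.36 (adjusted p = 0.00608, but 0.115 when only those 2 groups were fitted). With the inhibitor alone it fell by 0.79 ± 0.20 (adjusted p = 0.0203), a call that was lost when any 1 of the 3 NNMTi or 3 control libraries was left out (adjusted p up to 0.0975). *Nrg2*, another neuregulin, averaged 0.516 ± 0.366 CPM in the combined group, 0.778 ± 0.0775 CPM with TGFβ, 2.05 ± 0.320 CPM with NNMTi and 4.84 ± 0.423 CPM in controls, and fell with TGFβ by 2.62 ± 0.44 (adjusted p = 1.12e-04). Its reads too were few, 13 counts over the combined group and 18 over the TGFβ group. *Egf* averaged 6.08 ± 1.81 CPM in the combined group, 5.39 ± 1.37 CPM with TGFβ, 9.78 ± 1.41 CPM with NNMTi and 9.09 ± 1.45 CPM in controls. Its change with TGFβ, -0.76 ± 0.27 (adjusted p = 0.0332), was lost under 5 of 20 other settings. These were thinning to the shallowest library (adjusted p = 0.226), a fit of only those 2 groups (0.0501), and leaving out TGFβ replicate 1 (0.175), control replicate 2 (0.0768) or control replicate 3 (0.129).

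Genes of ligand shedding were tested for 10 of 11 list members. With TGFβ 3 of the 10 rose, *Adam12*, *Adam10* and *Timp3*, where 19.4% of all tested genes rose, and the median log2 change of the list was 0.27 against 0.02 over all genes. *Adam12*, a metalloprotease reported to cut HB-EGF, averaged 22.6 ± 4.89 CPM in the combined group, 40.4 ± 9.81 CPM with TGFβ, 0.445 ± 0.212 CPM with NNMTi and 0.952 ± 0.537 CPM in controls, and rose with TGFβ by 5.39 ± 0.32 on the log2 scale (edgeR adjusted p = 4.01e-10). *Timp3*, an inhibitor of ADAM17 and other metalloproteases, averaged 1479 ± 142 CPM in the combined group, 2036 ± 363 CPM with TGFβ, 459 ± 18.2 CPM with NNMTi and 622 ± 24.3 CPM in controls, and rose with TGFβ by 1.71 ± 0.12 (adjusted p = 2.29e-09). *Adam17*, the main sheddase of TGFα, had 84.8, 86.5 and 86.5 CPM in the combined group, 66.9, 54.9 and 47.1 CPM with TGFβ, 80.4, 73.5 and 80.6 CPM with NNMTi and 67.0, 64.4 and 66.0 CPM in controls. It rose in the combined group against TGFβ by 0.59 ± 0.12 (adjusted p = 0.00299), a call that was lost when only those 2 groups were fitted (0.05004). In that comparison 1 of the 10 rose and 2 fell. The 2 that fell were *Adam12* and *Timp3*, and their calls were lost under 5 and 4 other settings. Of all tested genes 3.45% rose and 6.97% fell in that comparison. For the other comparisons, 1 of 10 fell with NNMTi against control, where 5.80% of all tested genes fell. It was *Timp3* (adjusted p = 0.0244, lost when any 1 NNMTi or control library was left out). In the combined group 4 of 10 rose against NNMTi, where 18.0% of all tested genes rose. Against control 4 of 10 rose as well, where 15.3% of all tested genes rose.

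Of 20 adaptor and RAS-MAPK genes downstream of the receptors, all tested, 6 rose and 4 fell with TGFβ, where 19.4% of all tested genes rose and 17.1% fell, with a median log2 change of 0.08 against 0.02 over all genes. *Ptpn11*, which encodes the phosphatase SHP2, rose with TGFβ by 0.67 ± 0.10 (edgeR adjusted p = 3.15e-05), and *Gab1*, an adaptor of EGFR, fell by 0.65 ± 0.13 (adjusted p = 8.19e-04). With NNMTi against control 1 of the 20 fell, the adaptor *Shc1* (adjusted p = 0.0464, lost under 9 other settings), and in the combined group against TGFβ 1 of the 20 rose, the kinase gene *Mapk3* (adjusted p = 0.0441). Of all tested genes 5.80% fell in the first of these comparisons and 3.45% rose in the second. The combined group had 4 up and 4 down against NNMTi, where 18.0% of all tested genes rose and 18.3% fell. It had 5 up and 3 down against control, where 15.3% of all tested genes rose and 16.5% fell. Of 10 PI3K-AKT genes, 2 rose and 3 fell with TGFβ, beside the same shares of all genes, and *Pik3r1*, the main regulatory subunit of PI3K, fell by 1.47 ± 0.10 (adjusted p = 3.03e-09). The median of the list was -0.10. With NNMTi 1 of these 10 fell, the catalytic subunit gene *Pik3cb* (adjusted p = 0.00543, 0.135 after thinning). In the combined group 1 rose against TGFβ, *Pik3r2* (adjusted p = 0.0241), 2 rose and 2 fell against NNMTi, and 1 rose and 1 fell against control. The shares of all tested genes in these comparisons are those given for the adaptor and RAS-MAPK genes.

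Of 17 genes of receptor down-regulation, all tested, 6 rose and 4 fell with TGFβ, where 19.4% of all genes rose and 17.1% fell, with a median log2 change of 0.13. *Sh3kbp1*, which encodes the CBL partner CIN85 that takes part in EGFR endocytosis, averaged 20.6 ± 3.03 CPM in the combined group, 24.9 ± 6.56 CPM with TGFβ, 3.52 ± 0.270 CPM with NNMTi and 4.23 ± 0.841 CPM in controls, and rose with TGFβ by 2.54 ± 0.23 (edgeR adjusted p = 8.98e-08). *Lrig3*, of the LRIG family of membrane proteins that act on ERBB receptors, rose with TGFβ by 0.95 ± 0.19 (adjusted p = 0.00121). With NNMTi against control edgeR and DESeq2 each called 0 of the 17. Limma voom called 4, where it called 3064 of all 13581 tested genes. In edgeR 4 of the 17 had an unadjusted p under 0.05, as did 2933 of all tested genes. In the combined group 1 rose against TGFβ, *Lrig2* (adjusted p = 0.0165), where 3.45% of all tested genes rose. Against NNMTi 4 rose and 2 fell, where 18.0% of all tested genes rose and 18.3% fell. Against control 2 rose and 4 fell, where 15.3% of all tested genes rose and 16.5% fell.

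The 18 genes of ERK feedback and output, many of them induced when EGFR signals through ERK, were tested for 17. With TGFβ 10 of the 17 fell, where 17.1% of all tested genes fell, and the median log2 change was -0.55 against 0.02 over all genes. With NNMTi 6 of the 17 fell, where 5.80% of all tested genes fell, and the median was -0.66 against 0.01. In the combined group 3 rose and 3 fell against TGFβ, where 3.45% of all tested genes rose and 6.97% fell. Against NNMTi 3 rose and 8 fell, where 18.0% of all tested genes rose and 18.3% fell. Against control 1 rose and 10 fell, where 15.3% of all tested genes rose and 16.5% fell. *Ccnd1*, which encodes cyclin D1, had 10.2, 13.9 and 13.2 CPM in the combined group, 53.5, 46.3 and 66.6 CPM with TGFβ, 175, 157 and 168 CPM with NNMTi and 543, 557 and 561 CPM in controls. No groups overlapped, and *Ccnd1* fell by 3.35 ± 0.13 on the log2 scale with TGFβ (edgeR adjusted p = 1.69e-12), by 1.73 ± 0.12 with NNMTi (adjusted p = 4.29e-08) and by 2.13 ± 0.14 with the inhibitor on top of TGFβ (adjusted p = 2.42e-08). *Dusp6*, an ERK phosphatase, averaged 54.5 ± 2.20 CPM in the combined group, 56.3 ± 11.2 CPM with TGFβ, 77.4 ± 5.85 CPM with NNMTi and 147 ± 5.40 CPM in controls, and fell with either agent alone, by 1.38 ± 0.12 with TGFβ (adjusted p = 7.76e-08) and by 0.93 ± 0.12 with NNMTi (adjusted p = 5.79e-05). *Egr1*, an immediate early transcription factor, averaged 103 ± 10.0 CPM in the combined group, 68.5 ± 23.9 CPM with TGFβ, 296 ± 19.5 CPM with NNMTi and 225 ± 12.4 CPM in controls, and fell with TGFβ by 1.76 ± 0.17 (adjusted p = 7.01e-07). *Epha4*, an ephrin receptor, fell with NNMTi by 0.93 ± 0.12 (adjusted p = 5.36e-05). *Spry1*, a feedback inhibitor of RAS-ERK signalling, averaged 41.6 ± 3.98 CPM in the combined group, 44.6 ± 10.5 CPM with TGFβ, 105 ± 1.84 CPM with NNMTi and 91.9 ± 9.75 CPM in controls, and fell in the combined group against NNMTi by 1.33 ± 0.14 (adjusted p = 3.70e-07).

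**Figure D5:**
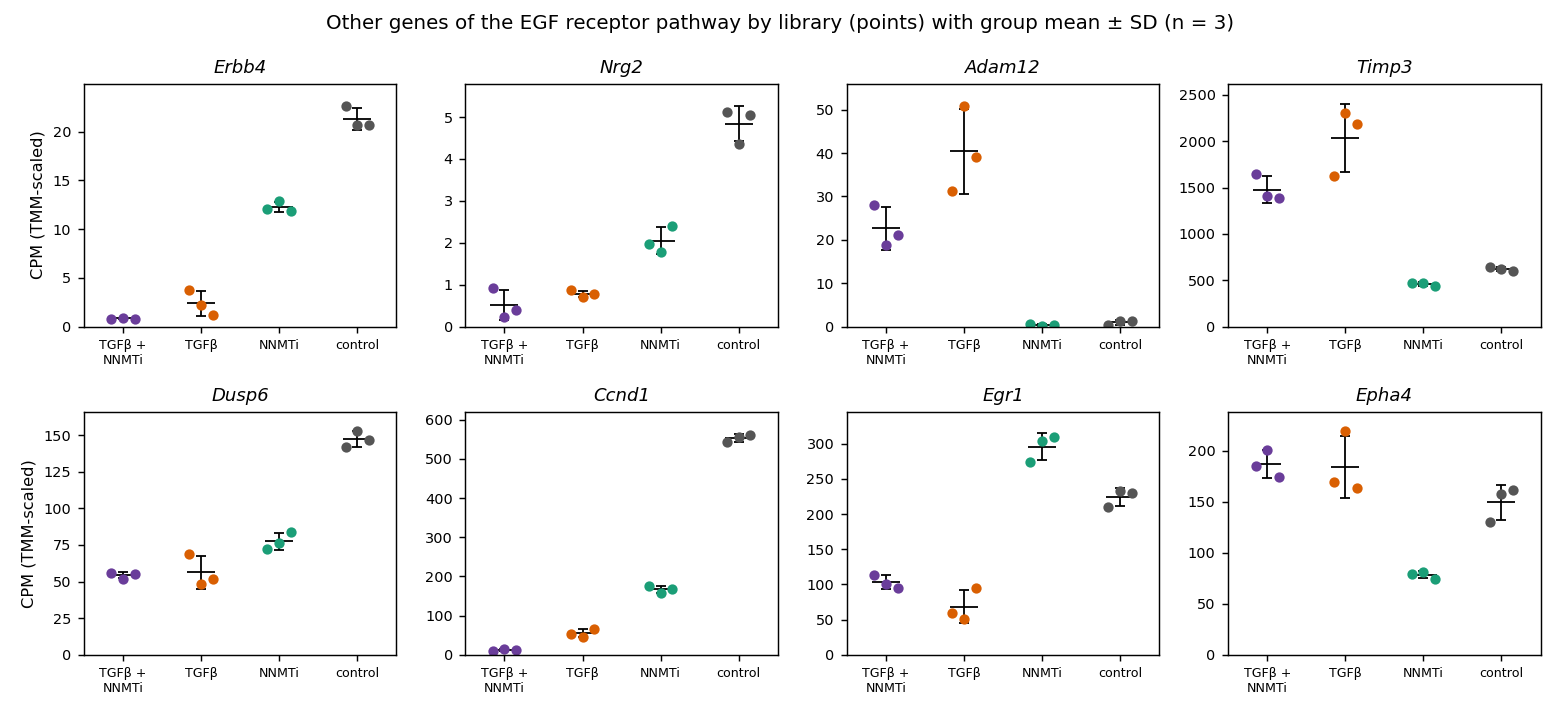
Level in CPM of 8 other genes of the EGF receptor pathway, with 1 point per library and the group mean ± SD (n = 3, groups from left to right TGFβ + NNMTi, TGFβ, NNMTi and control). *Erbb4*, *Ccnd1* and *Dusp6* are highest in controls, and *Adam12* and *Timp3* are high in both groups with TGFβ.

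The genes whose levels followed *Egfr*, *Hbegf* and *Errfi1* most closely over the 12 libraries were ranked by Pearson's r of log2 CPM among 9163 tested genes with a mean of at least 10 CPM. These values describe libraries that fall into 4 groups, and no p is given. For *Egfr* they were *Krt20* (r = 0.969), *Ppp2r5b* (r = 0.961) and *Map3k7cl* (r = 0.961). *Map3k7cl* averaged 48.6 CPM in the combined group, 66.1 CPM with TGFβ, 16.0 CPM with NNMTi and 40.1 CPM in controls, the same order of groups as *Egfr*. For *Hbegf* they were *Pcmt1* (r = 0.934), *Clcc1* (r = 0.924) and *Ift43* (r = 0.914), and for *Errfi1* they were *Ier5l* (r = 0.989), *Itm2b* (r = 0.986) and *H2-Ab1* (r = 0.985). *Ier5l* averaged 73.7 CPM in the combined group, 81.1 CPM with TGFβ, 190.2 CPM with NNMTi and 148 CPM in controls, so that its levels too were low in both groups with TGFβ.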

How the data were processed

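The samples were 12 RNA libraries of im-TEC, prepared from 100 ng of total RNA with the QuantSeq 3′ FWD kit, per the labels' protocols. The deposited values are whole-number counts per mouse Ensembl gene, which the authors made with STAR and HTSeq, per the submitters' processing notes. Versions, counting strand and filters are not given in the sources used here. The notes name GRCh38, a human build, although the identifiers are mouse, so no position is taken from the table. Rows for reads outside genes (21.1 to 26.8% of the reads in the table) and ambiguous reads (0.613 to 0.802%) were left out. Of the gene identifiers, 55141 had a symbol.

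Counts were filtered with filterByExpr, which left 13581 genes, scaled by TMM and fitted in edgeR 4.0.16 (R 4.3.3) as 1 quasi-likelihood model of 4 group means, with Benjamini-Hochberg adjustment over all tested genes. SEs are the log2 fold change divided by the root of F. Log2 CPM for the likeness ranking used a prior count of 3. DESeq2 1.42.0 and limma 3.58.1 served as alternatives, as did other scaling, no filter, fits of 2 groups, thinning, a replicate block and leaving out each library. The procedure was tested on simulated data. Replicates were not duplicates, with a chi-square divided by its degrees of freedom between 3.23 and 40.8 for pairs within a group. The highest values, 40.8 and 31.6, were those of TGFβ replicate 2 against replicates 1 and 3, and the next was 12.5. No pairing of libraries by replicate number is stated, so the main fit had no replicate block.

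All 10 members are named. From each pathway list and comparison, up to 3 called genes with the largest absolute change at a mean of 10 CPM or more could be named. The members and lists were chosen with earlier results of these data known. Overlaps of genes come from GENCODE vM21, used for names and neighbours, and promoter windows from RefSeq (GRCm38.p6), where 6 of the 10 members had an entry.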

Additional observations from a re-analysis of the deposited data

Results flagged for a closer look

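The inhibitor's effect differed with and without TGFβ for 2 genes of the ERK feedback and output list, by the test of the interaction itself. *Dusp6* fell with the inhibitor in cells without TGFβ and had 54.5 ± 2.20 CPM in the combined group against 56.3 ± 11.2 CPM with TGFβ. Its fall with the inhibitor was thus smaller with TGFβ than without it, by 0.87 ± 0.17 on the log2 scale (edgeR adjusted p = 0.0165). This call was lost without NNMTi replicate 1 (0.0532) or 2 (0.0531) and without control replicate 2 (0.0699) or 3 (0.0535), and the difference lay between 0.71 and 1.06 over 19 other settings. *Epha4* had 187 ± 13.5 CPM in the combined group, 184 ± 30.8 CPM with TGFβ, 78.3 ± 3.51 CPM with NNMTi and 149 ± 17.2 CPM in controls (SD, n = 3). It fell with the inhibitor in cells without TGFβ but not in cells with it, and the interaction was 0.95 ± 0.17 on the log2 scale (edgeR adjusted p = 0.00676, at most 0.0359 under the 19 other settings). No other member or pathway gene had a called interaction in the edgeR fit of all libraries.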

How the results depend on the processing

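No call of a member changed direction under any alternative. The count of members called for NNMTi against control, 1 as reported, was 3 with library size alone, 2 without the filter, 3 with DESeq2, 4 with limma voom and quality weights and 4 with only the 2 groups compared, and 0 to 3 when 1 library was left out (0 without NNMTi replicate 3 or control replicate 1, 3 without TGFβ replicate 2). For the combined group against TGFβ, 1 as reported, it was 2 with DESeq2, 3 with limma voom and 0 with only the 2 groups, and 1 to 2 when 1 library was left out (2 without TGFβ replicate 3). The counts for TGFβ against control (2 to 4), the combined group against NNMTi (3 to 5) and against control (4 to 5), and the interaction (0) stayed within 1.5 times of the reported 3, 4, 5 and 0. For TGFβ against control like counts could hold different genes. With library size alone and after thinning 0 rose and 3 fell, in place of 1 and 2. *Hbegf*, the rising member, lost its call there under 16 of 20 other settings. Between same-numbered libraries, 1 of 18 correlations of deviations exceeded 0.1 (range -0.0847 to 0.202). Differently numbered libraries were not compared, so these values cannot show whether libraries with the same number were handled together. With the replicate block the *Hbegf* change for TGFβ against control was 0.40 (adjusted p = 0.0631), and 2 members were called in that comparison. Over the 20 other settings that *Hbegf* change ranged from 0.20 to 0.56 and its adjusted p from 0.00622 to 0.264.

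Over all genes, the calls for NNMTi against control, 1123 as reported, ranged from 669 after thinning to 3064 with limma voom, and from 591 to 2179 when 1 library was left out (2179 without TGFβ replicate 2). Those for the combined group against TGFβ, 1416, ranged from 408 with only the 2 groups to 1908 with limma voom, and from 762 to 1938 when 1 library was left out. Those of the interaction, 151, ranged from 88 after thinning to 483 with limma voom, with 306 without the filter and 266 with DESeq2, and from 65 to 399 when 1 library was left out (399 without TGFβ replicate 2). With library size alone the median log2 change of all genes in the combined group against control shifted by -0.12, and the calls were 1404 up and 2899 down in place of 2077 and 2244. For NNMTi against control they were 204 up and 1036 down in place of 335 and 788. With limma voom *Erbb3* fell in the combined group against TGFβ (adjusted p = 0.0456). The cause of these differences was not tested. Depth limits *Areg*, *Btc*, *Erbb3* and *Ereg* most, and TGFβ replicate 3 sets the highest detection floor, 1.15 CPM.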

Other observations

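Other ligand genes of the family were near or below the detection floor. *Nrg4*, a neuregulin, had 3, 0 and 0 counts in the combined libraries, 3, 3 and 0 with TGFβ, 7, 4 and 8 with NNMTi and 8, 6 and 10 in controls, and did not pass the filter. *Epgn*, which encodes the EGFR ligand epigen, had at most 2 counts in any library, and *Nrg3* was at 0 in all 12.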
